A study of Homo sapiens with 6 samples.

Results

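The SCAN-domain zinc finger family was measured in HCT116 colorectal carcinoma cells with and without one of its own members, ZKSCAN3. The members were a named set of 44 genes, found by matching the symbol of each row of the gene table, and they made up 44 of the 46427 genes listed. All 44 were found. Of these, 11 lie together on the short arm of chromosome 6 at band 6p22, where ZKSCAN3 itself sits, and 33 lie elsewhere. The comparison set ZK3-KO cells, described as bi-allelic mutants made with CRISPR/Cas9 against exon 1 of ZKSCAN3, where the labels place a deletion of the start codon, against ZK3-WT cells, the unedited parental line. Each genotype had 3 RNA libraries, called replicates 1 to 3, and both genotypes were grown in DMEM with fetal bovine serum and received no other agent. The ZK3-KO cells had gone through transfection, puromycin selection and single-cell cloning, which the parental cells had not, so an effect of the edit and of the cloning cannot be told apart. The sources used here call the libraries biological triplicates but do not say whether the ZK3-KO libraries came from more than 1 clone, so the p-values measure the spread between these libraries, which may be partly technical.

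The SCAN domain is a short leucine-rich stretch through which these proteins pair with themselves and with one another, and it descends from the capsid gene of an ancient retrotransposon. Most members join it to an array of C2H2 zinc fingers that binds DNA. Those named ZKSCAN, and several ZNF members, also carry a KRAB domain. In many zinc finger proteins this domain recruits the co-repressor TRIM28. Through TRIM28 come the histone methyltransferase SETDB1, the HP1 proteins and histone deacetylases. Whether the KRAB domains of the SCAN members do so was not tested here. SCAND1 has the SCAN domain without zinc fingers, and PGBD1 joins it to a domain derived from a piggyBac transposase. ZKSCAN3 is known as a repressor of autophagy and lysosome genes and as a factor that favours colorectal tumour growth. HCT116 is an established colon carcinoma line with an activating mutation in the β-catenin gene.

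Each library held between 60827060 and 69739215 reads assigned to genes. ZK3-KO replicate 3 stood apart from the other ZK3-KO libraries. Its log2 CPM (reads per library scaled to a common total) correlated with them at 0.973 and 0.961 across genes. Those 2 libraries correlated with each other at 0.993, and the ZK3-WT pairs at 0.991 to 0.995. ZK3-KO replicate 3 correlated more with ZK3-WT replicate 3 (0.978) than with either other ZK3-KO library. ZK3-KO replicate 1 correlated with ZK3-WT replicate 1 at 0.987, also above its value with ZK3-KO replicate 3. Fold changes are also given without ZK3-KO replicate 3 where it ends or makes a call, turns a direction or moves the value over 1.5-fold. This was done for genes with CPM given per library and for the cell markers. Other values are with all libraries unless stated. Of 7 epithelial markers, EPCAM, CDH1, KRT8, KRT18, KRT19 and CLDN4 passed the expression filter, and VIL1, which builds the brush border, was at or near 0 reads in every library. CLDN4, a tight junction claudin, was lower in ZK3-KO cells without replicate 3 (log2 fold change -1.02, FDR = 0.00355) but not past the threshold with all libraries (-0.49, FDR = 0.50). Leaving out replicate 3 turned KRT8 from 0.18 to -0.14 and KRT18 from 0.16 to -0.36. It moved CDH1 from -0.07 to -0.54 and KRT19 from -0.06 to -0.54. None of these keratins, nor CDH1, passed the threshold in either fit. Of 8 markers of other cell types, PTPRC and CD3E had 0 reads in all 6 libraries, PECAM1, COL1A2 and LUM were near 0, and COL1A1, ACTA2 and DES were measured. COL1A1 turned from 0.24 to -0.31 without replicate 3 and passed the threshold in neither fit. ACTA2, smooth muscle actin, was upregulated in ZK3-KO cells (log2 fold change 1.09, FDR = 0.0387), and DES, desmin, was past the threshold without replicate 3 (-1.02, FDR = 0.0347) but not with all libraries (-0.47, FDR = 0.573). The part of these markers in the results below was not tested.

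The first annotated start codon of ZKSCAN3 and promoters of its locus are shown first, because ZKSCAN3 shares its locus with ZSCAN31, the member whose RNA differed most between the genotypes. ZKSCAN3 is gene 80317, on the forward strand of chromosome 6 at 28317724 to 28336949 (GRCh37). Its first annotated start codon lies at 28327364 to 28327366, in a coding exon, and is set in capitals in the reference sequence of chr6:28327334-28327396 (GRCh37, forward strand). A second annotated start codon begins at 28329143. Which of the 2 the labels mean is not settled here, so the codon shown need not be the edited one. The deposited gene-level counts do not show the deletion itself.
ZKSCAN3 start codon: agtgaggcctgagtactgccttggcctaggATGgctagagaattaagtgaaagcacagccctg

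ZSCAN31 (gene 64288) is read from the opposite strand at 28292470 to 28324048, so that the 2 genes overlap over 6325 bases with 0 shared exon bases. Of its 19 annotated transcripts, 8 start inside ZKSCAN3, upstream of the first ZKSCAN3 start codon by at least 3316 bases. The other 11 start outside ZKSCAN3, the nearest 8196 bases before the ZKSCAN3 start. The 3 RefSeq windows below (GRCh38.p14, the 250 bases before a start) are the ZKSCAN3 promoter at chr6:28349697-28349946 on the forward strand, a ZSCAN31 promoter inside ZKSCAN3 at chr6:28356272-28356521 on the reverse strand, and a ZSCAN31 promoter outside ZKSCAN3 at chr6:28336149-28336398 on the reverse strand. The ZSCAN31 starts inside ZKSCAN3 run from 28321842 to 28324048 (GRCh37), farther apart than a window is long. The window printed therefore does not stand for all of them. Capitals mark the core motif of TCF factors, the DNA-binding partners of β-catenin, searched as CTTTGA and CTTTGT on both strands.
ZKSCAN3 promoter: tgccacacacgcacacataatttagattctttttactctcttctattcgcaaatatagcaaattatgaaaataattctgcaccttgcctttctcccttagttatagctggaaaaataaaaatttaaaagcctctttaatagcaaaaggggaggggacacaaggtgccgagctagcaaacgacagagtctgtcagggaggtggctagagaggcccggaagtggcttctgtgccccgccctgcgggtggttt
ZSCAN31 promoter inside ZKSCAN3: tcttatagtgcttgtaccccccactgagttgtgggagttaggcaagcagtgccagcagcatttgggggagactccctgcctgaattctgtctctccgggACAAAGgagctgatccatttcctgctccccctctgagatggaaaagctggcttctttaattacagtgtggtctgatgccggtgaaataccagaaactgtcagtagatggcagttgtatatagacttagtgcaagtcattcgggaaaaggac
ZSCAN31 promoter outside ZKSCAN3: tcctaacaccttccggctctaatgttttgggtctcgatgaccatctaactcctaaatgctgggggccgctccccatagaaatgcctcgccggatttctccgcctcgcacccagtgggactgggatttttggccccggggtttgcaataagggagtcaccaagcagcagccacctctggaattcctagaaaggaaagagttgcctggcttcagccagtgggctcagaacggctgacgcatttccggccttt

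The ZSCAN31 window inside ZKSCAN3 held 1 TCF core, and the other 2 windows held 0. The paper reports candidate TCF4 motifs in the ZKSCAN3 promoter, and TCF4 binding there by ChIP in cells transfected with GFP-tagged TCF4. Its other evidence includes luciferase assays of that promoter, in which the response to WNT depended on β-catenin and TCF4. Binding of β-catenin itself to the promoter was not seen (data not shown in the paper). The ZKSCAN3 window searched here is short and need not cover the region the paper studied. Whether the rest of the ZKSCAN3 promoter holds a TCF core was not tested. Windows were found for 37 of the 44 members, 58 windows in all. A TCF core was in 17.2% of these and in 22.8% of the 35116 windows of all genes, and 8 members had a match in any window. The member windows were richer in CpG than most, with a median of 18.5 CpG against 11.0 over all windows, while the ZKSCAN3 window held 7 and the ZSCAN31 window inside it 3. ZSCAN16, ZSCAN26, ZNF165, ZNF394, ZNF396, ZKSCAN2 and PEG3 had no entry.

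ZKSCAN3 RNA was still present in the knockout. Its CPM was 28.1, 23.4 and 19.8 in ZK3-WT replicates 1 to 3, and 25.4, 24.9 and 13.6 in ZK3-KO replicates 1 to 3. ZK3-KO replicate 3 was the lowest of the 6 libraries, and the other ZK3-KO libraries lay inside the ZK3-WT range, so the groups overlapped. On the log2 scale ZK3-KO differed from ZK3-WT by -0.16 (standard error 0.27, FDR = 0.797), which without replicate 3 was 0.086 (FDR = 0.766). The transcript level therefore gives no check of the genotype labels, since removing a start codon need not remove the RNA. ZKSCAN4 is a close paralog of ZKSCAN3, and reads that fit both could have been divided between them.

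Across the family, few members differed between the genotypes. The filter on low counts left 40 of the 44 members, 14 with a higher and 26 with a lower estimate in ZK3-KO cells, and their log2 fold changes ran from -1.37 to 1.08 with a median of -0.06 (median of all 18366 genes tested, 0.02). A single member, ZSCAN31, passed an FDR of 0.05, which is 2.5% of those tested, near the 2.05% of all genes that passed. It was downregulated, as were 1.23% of all genes, while 0.817% of all genes and no member were upregulated. At an unadjusted p below 0.05 there were 5 members (12.5%) against 18.4% of all genes. In 35 of the 40 members (87.5%) the log2 fold change was smaller than 0.5 in size, against 71.1% of all genes tested. The standard errors of the members ran from 0.13 to 0.33. A difference of about that size could not be told from 0, and larger ones could also miss the threshold. ZSCAN30, at 1.08 with a standard error of 0.30, did not pass. A member that was not called is therefore not shown to be unchanged.

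**Figure D1:**
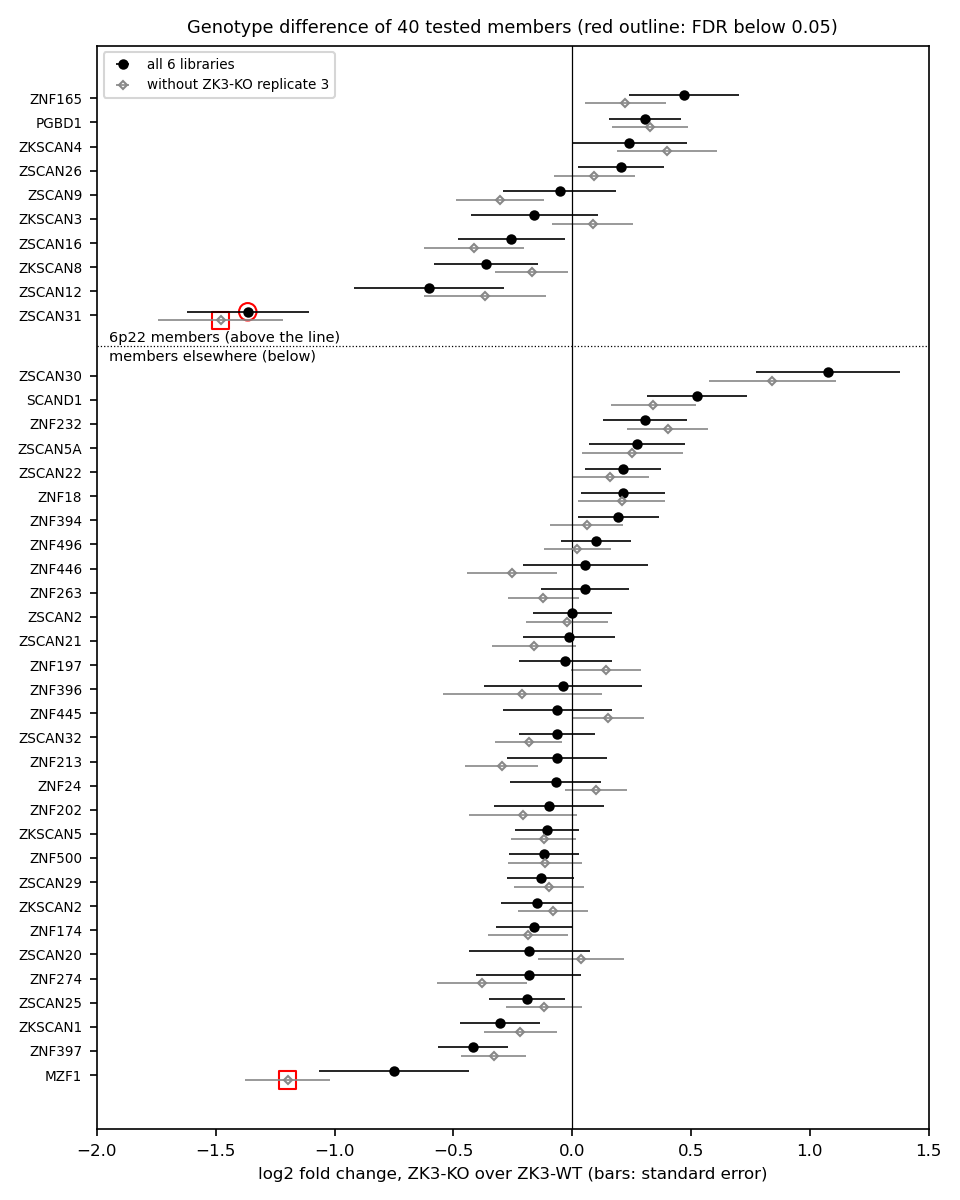
Log2 fold change (x axis, ZK3-KO over ZK3-WT) of the 40 tested SCAN family genes, with 6p22 members above the dotted line and the others below it; black circles are all 6 libraries, grey diamonds leave out ZK3-KO replicate 3, bars are standard errors and a red outline marks an FDR below 0.05. ZSCAN31 stands at -1.37 at the lower end, ZSCAN30 at 1.08 at the upper end, and MZF1 is past the threshold only without replicate 3.

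Leaving out ZK3-KO replicate 3 raised the calls over all genes more than those in the family. The same test then called 15.1% of all genes (7.41% higher, 7.73% lower) and 2 of the 40 members (5.00%), ZSCAN31 and MZF1, both downregulated. The family median was then -0.11. In the 6 libraries together, the CPM of the genotypes did not overlap in 9 members (22.5%), against 26.6% of all genes. Of these 9, ZSCAN22, ZSCAN30, SCAND1, PGBD1 and ZNF232 were higher in all ZK3-KO libraries (12.7% of all genes were), and ZSCAN31, ZNF174, ZNF397 and MZF1 were lower in all of them (13.8% of all genes were).

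The medians of the 6p22 members and of the rest lay close together. They span 363 kb, from 28048346 to 28411279 on chromosome 6 (GRCh37), and 10 of the 11 passed the filter. The estimate was higher in 4 and lower in 6, with a median log2 fold change of -0.11, against 10 higher, 20 lower and a median of -0.06 in the 30 tested members elsewhere and 0.00 for the 828 tested genes of chromosome 6. Leaving out ZSCAN31, the 6p22 median was -0.05. Without ZK3-KO replicate 3 the medians were -0.04 at 6p22 and -0.11 elsewhere, so their order turned with that library. At 6p22, 1 of 10 members passed the FDR threshold, and elsewhere 0 of 30, beside 2.05% of all genes and 2.78% of those on chromosome 6. An unadjusted p below 0.05 in the edgeR test was found for 1 of 10 and 4 of 30, beside 18.4% of all genes and 17.9% of those on chromosome 6. The difference between the sets was not tested.

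**Figure D2:**
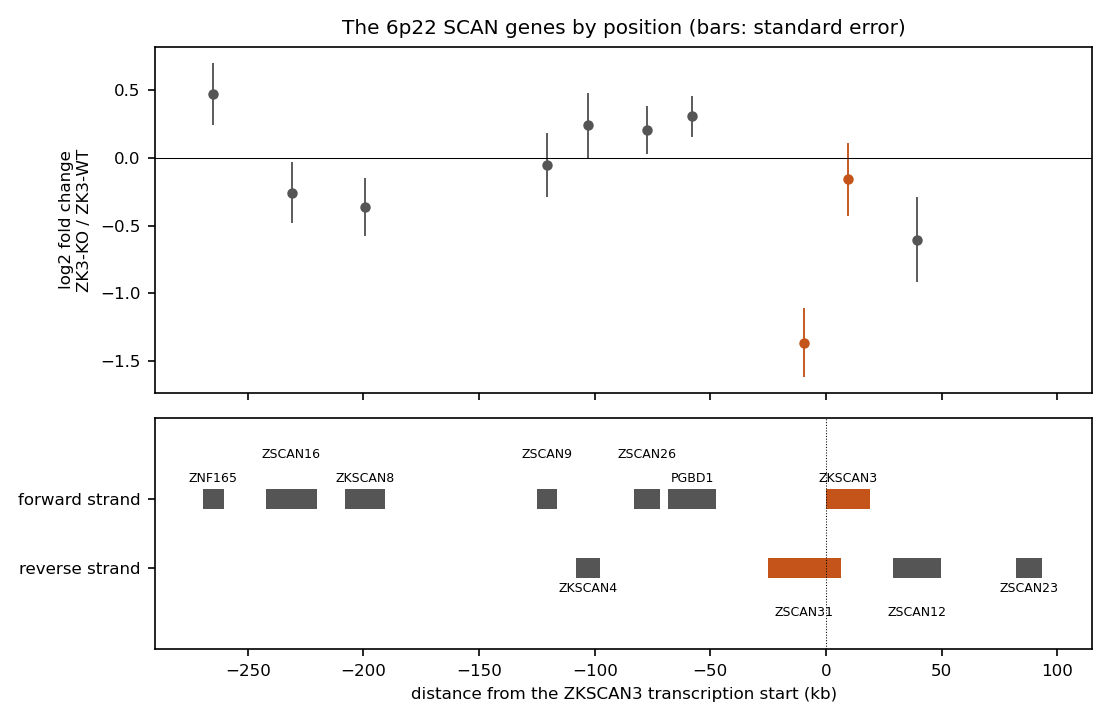
The 11 SCAN genes of 6p22 drawn to scale by distance from the ZKSCAN3 start (x axis, kb) on each strand, with the log2 fold change and standard error of the 10 tested genes above; ZKSCAN3 and ZSCAN31, which overlap, are in orange. ZSCAN31 is the point at -1.37, and its neighbours on both sides lie between -0.60 and 0.47.

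ZSCAN31, a SCAN zinc finger gene without a KRAB domain, was downregulated in ZK3-KO cells. It had 917, 1874 and 1711 reads in the ZK3-WT libraries and 504, 546 and 608 in the ZK3-KO libraries. On the CPM scale these were 14.6, 26.7 and 24.5 against 7.83, 7.88 and 9.84. Every ZK3-KO library lay below every ZK3-WT library, and ZK3-WT replicate 1 was the nearest to them. The mean CPM was 21.9 ± 6.46 (SD, n = 3) in ZK3-WT and 8.51 ± 1.15 (SD, n = 3) after the knockout. On the log2 scale the difference was -1.37 (standard error 0.26, FDR = 0.0467), and -1.48 without ZK3-KO replicate 3 (FDR = 0.00960). The call was lost with no filter on low counts (FDR = 0.0632) and without ZK3-WT replicate 2 (0.224), ZK3-WT replicate 3 (0.205), ZK3-KO replicate 1 (0.177) or ZK3-KO replicate 2 (0.123). In bulk RNA, fewer cells that express a gene and less of its RNA per cell cannot be told apart.

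The size of the ZSCAN31 difference depended on the unit. In TPM, the authors' value per transcript length, ZSCAN31 was at 8.62, 12.2 and 10.2 in ZK3-WT and 4.22, 4.87 and 4.17 in ZK3-KO cells. The groups were again apart, with a log2 fold change of -1.05 on the log2(TPM + 1) scale (limma, FDR = 0.0301). The table lists 22 transcripts for the gene, and the length by which its reads had been divided, read from the ratio of counts to FPKM, was 3888, 5237 and 5545 bases in ZK3-WT replicates 1 to 3 and 4264, 3718 and 4354 bases in ZK3-KO replicates 1 to 3. In 1519 genes with a single listed transcript this length differed between libraries by at most 1.00182-fold. The reads of ZSCAN31 had thus been spread over transcripts in different proportions in different libraries, and the lengths of the 2 genotypes overlapped. The counts are per gene, and which ZSCAN31 start was used is not shown by them.

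In CPM, the tested 6p22 genes other than ZSCAN31 overlapped between genotypes, with the exception of PGBD1. In TPM, PGBD1 overlapped, and ZSCAN16 and ZSCAN12 were lower in every ZK3-KO library. Among all genes tested, 26.6% did not overlap in CPM. The matching share in TPM was not counted, so the TPM separation of ZSCAN16 and ZSCAN12 has no background beside it. Lower estimates were also the more common ones in TPM, in 11415 of all genes against 6951 with a higher estimate. From the telomeric side, ZNF165, a cancer-testis antigen, had CPM of 15.2, 11.5 and 12.99 in ZK3-WT and 15.04, 15.7 and 24.2 in ZK3-KO libraries, with the highest value in ZK3-KO replicate 3 (log2 fold change 0.47, FDR = 0.334; 0.22 without that library). ZSCAN16 had 5.96, 7.66 and 7.15 against 4.67, 5.70 and 7.02 (-0.26, FDR = 0.593), and -0.41 without ZK3-KO replicate 3. Its TPM was 9.42, 12.1 and 11.3 against 6.96, 9.04 and 8.70. Both genes overlap the antisense gene ZSCAN16-AS1, and whether the counting used strand is not given in the sources used here, so reads of the partners may not be told apart.

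ZKSCAN8, a KRAB member with the highest 6p22 level, had CPM of 86.0, 98.0 and 73.4 in ZK3-WT and 78.9, 73.0 and 48.2 in ZK3-KO libraries (log2 fold change -0.36, FDR = 0.422), and without replicate 3 the value was -0.17. ZSCAN9 had 11.8, 12.8 and 12.7 against 11.5, 8.57 and 15.8 (-0.05, FDR = 0.932), with ZK3-KO replicates 2 and 3 at the lowest and highest ends, and -0.30 without replicate 3 or 0.14 without replicate 2. ZKSCAN4 had 7.74, 6.22 and 5.19 against 8.20, 8.58 and 5.83 (0.24, FDR = 0.649), or 0.40 without replicate 3. None of these values passed the threshold. In all 3 genes the range of the ZK3-KO libraries was wider than the distance between the group means.

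ZSCAN26 had CPM of 14.1, 13.6 and 14.3 in ZK3-WT and 16.8, 12.95 and 18.6 in ZK3-KO libraries (log2 fold change 0.21, FDR = 0.594), or 0.093 without replicate 3. PGBD1 had 10.6, 10.7 and 10.0 against 12.4, 13.7 and 12.6 (0.31, standard error 0.15, FDR = 0.340). PGBD1 was the one 6p22 gene with all ZK3-KO libraries above all ZK3-WT libraries in CPM, a difference that did not pass the test. ZSCAN12, on the far side of ZKSCAN3, had 3.21, 3.45 and 2.79 against 2.86, 2.02 and 1.34 (-0.60, FDR = 0.361), with ZK3-KO replicate 3 lowest and a value of -0.37 without it. In TPM it was at 2.47, 2.87 and 2.14 against 2.13, 1.58 and 0.861. ZSCAN23 was at the edge of detection, with 2 reads in ZK3-WT replicate 3 and 0 in the other libraries.

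Outside 6p22, MZF1 passed the threshold only without ZK3-KO replicate 3. MZF1 (myeloid zinc finger 1, gene 7593) lies on the reverse strand of chromosome 19 at 59073298 to 59084942 (GRCh37). Its CPM was 20.9, 20.5 and 24.8 in ZK3-WT and 10.6, 8.55 and 20.2 in ZK3-KO libraries. ZK3-KO replicates 1 and 2 were far below the ZK3-WT libraries, and replicate 3 lay just under the lowest of them. Its log2 fold change came to -0.75 (standard error 0.32, FDR = 0.268), and -1.20 without replicate 3 (standard error 0.18, FDR = 0.00476). The antisense gene MZF1-AS1 overlaps it. The end of MZF1 lies 11209 bases from that of TRIM28, the KRAB co-repressor, whose estimate went the other way.

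The other 3 members with an unadjusted p below 0.05 were picked after their values were seen. ZSCAN30 had the highest fold change of the family, with CPM of 8.68, 12.7 and 11.8 in ZK3-WT and 25.6, 13.96 and 30.3 in ZK3-KO libraries. All ZK3-KO libraries were above all ZK3-WT libraries, but replicate 2 only slightly so. The log2 difference amounted to 1.08 (standard error 0.30, FDR = 0.129), or 0.84 without replicate 3 (FDR = 0.0649).

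ZNF397 overlaps ZSCAN30 on the opposite strand of chromosome 18 over 16076 bases, of which 206 are exonic in both. Its CPM was 73.2, 69.9 and 63.2 in ZK3-WT and 57.2, 51.7 and 45.6 in ZK3-KO libraries, lower in all 3 (log2 fold change -0.42, standard error 0.15, FDR = 0.200). In TPM its groups overlapped, at 15.3, 20.8 and 17.8 against 15.7, 14.7 and 10.4. ZK3-WT replicate 1 was the lowest of the ZK3-WT libraries in TPM and the highest in CPM, and its implied length was 11025 bases against 8023 to 8364 in the other 5 libraries. SCAND1, which lacks zinc fingers, had CPM of 11.8, 9.04 and 9.83 against 12.3, 13.5 and 18.4 (0.53, standard error 0.21, FDR = 0.249), and 0.34 without replicate 3.

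**Figure D3:**
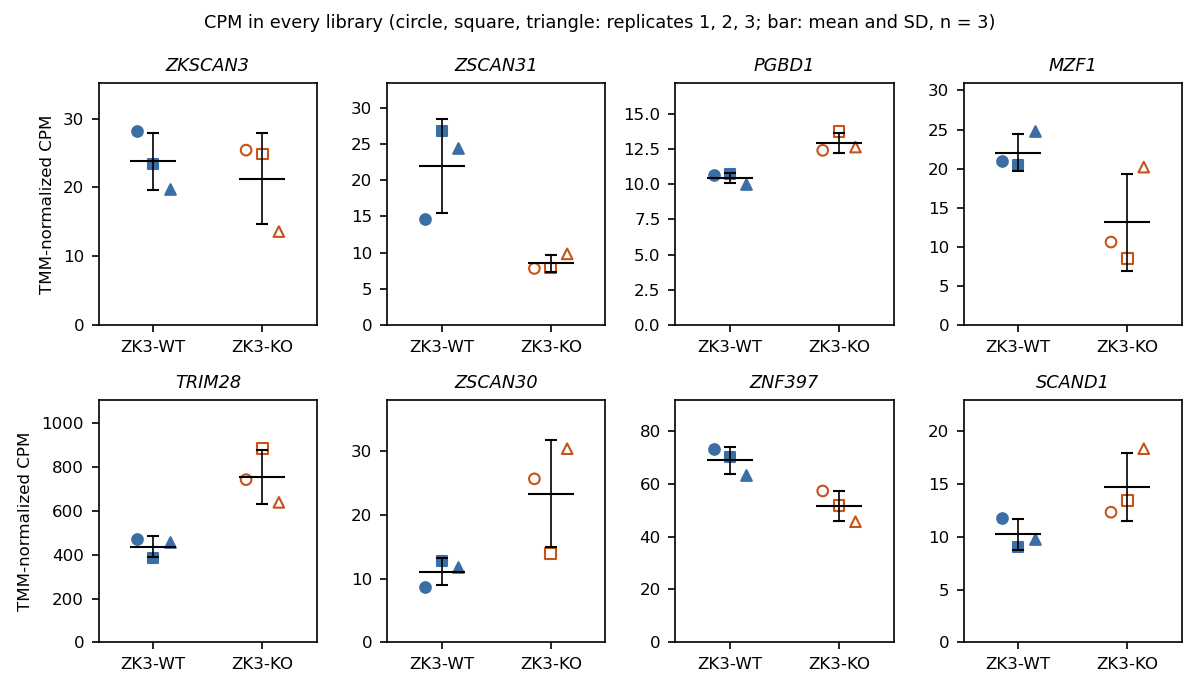
TMM-normalized CPM (y axis, from 0) of 7 SCAN family genes and TRIM28 in each library, ZK3-WT in filled blue and ZK3-KO in open orange symbols, with the mean and SD of 3 libraries as bars. ZSCAN31 shows 3 ZK3-KO libraries between 7.83 and 9.84 under ZK3-WT libraries from 14.6 to 26.7, while the third ZK3-KO library of MZF1, at 20.2, sits close to the ZK3-WT values.

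Of the 33 members outside 6p22, 24 sit in 5 chromosomal groups, where MZF1 without ZK3-KO replicate 3 and ZSCAN30 with DESeq2 (adjusted p = 0.0189) were the members past the threshold in any fit. The 5 members at 7q22 had a median log2 fold change of -0.11 (from -0.30 to 0.19), and the 5 at 16p13 had -0.07 (from -0.16 to 0.05). ZSCAN32 and ZNF174 at 16p13 start 150 bases apart on opposite strands. At 18q12, where ZNF24 and ZNF396 adjoin ZSCAN30 and ZNF397, the 4 members ranged from -0.42 to 1.08. At 19q13 the 5 tested of 7 members ranged from -0.75, in MZF1, to 0.27, and the 2 tested at 3p21 were at -0.06 and -0.03. Without ZK3-KO replicate 3 these last 2, ZNF445 and ZNF197, turned to 0.15 and 0.14. For comparison, the median of all tested genes was 0.03 on chromosome 7, 0.06 on chromosome 16, 0.00 on chromosome 18, 0.14 on chromosome 19 and 0.01 on chromosome 3. Of the 9 members in none of these groups, SCAND1 is given above, and the other 8 ranged from -0.18 in ZSCAN20 to 0.31 in ZNF232. Without ZK3-KO replicate 3 ZSCAN20 turned to 0.037, and the 16p13 median was -0.18.

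The levels of the members differed far more than the genotypes did. On the TPM scale, which allows comparison between genes, ZNF24, a repressor of VEGF transcription, was highest at 48.0 ± 5.23 TPM (SD, n = 3) in ZK3-WT and 42.3 ± 13.2 TPM (SD, n = 3) in ZK3-KO cells. ZKSCAN1 followed at 38.6 ± 5.56 and 29.1 ± 6.73 TPM. The spreads of these 2 genes overlapped in each genotype, but ZNF24 was the higher in every library. ZNF396 was the lowest of those tested, at 1.01 ± 0.182 TPM in ZK3-WT and 0.992 ± 0.301 TPM in ZK3-KO cells. At 6p22 the levels ran from 24.4 ± 3.83 TPM for ZKSCAN8 to 2.49 ± 0.367 for ZSCAN12 and 2.52 ± 0.469 for ZKSCAN4 in ZK3-WT cells, the last 2 within each other's spread. ZKSCAN3 itself was 23rd of the family in ZK3-WT cells, at 10.7 ± 1.82 TPM.

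**Figure D4:**
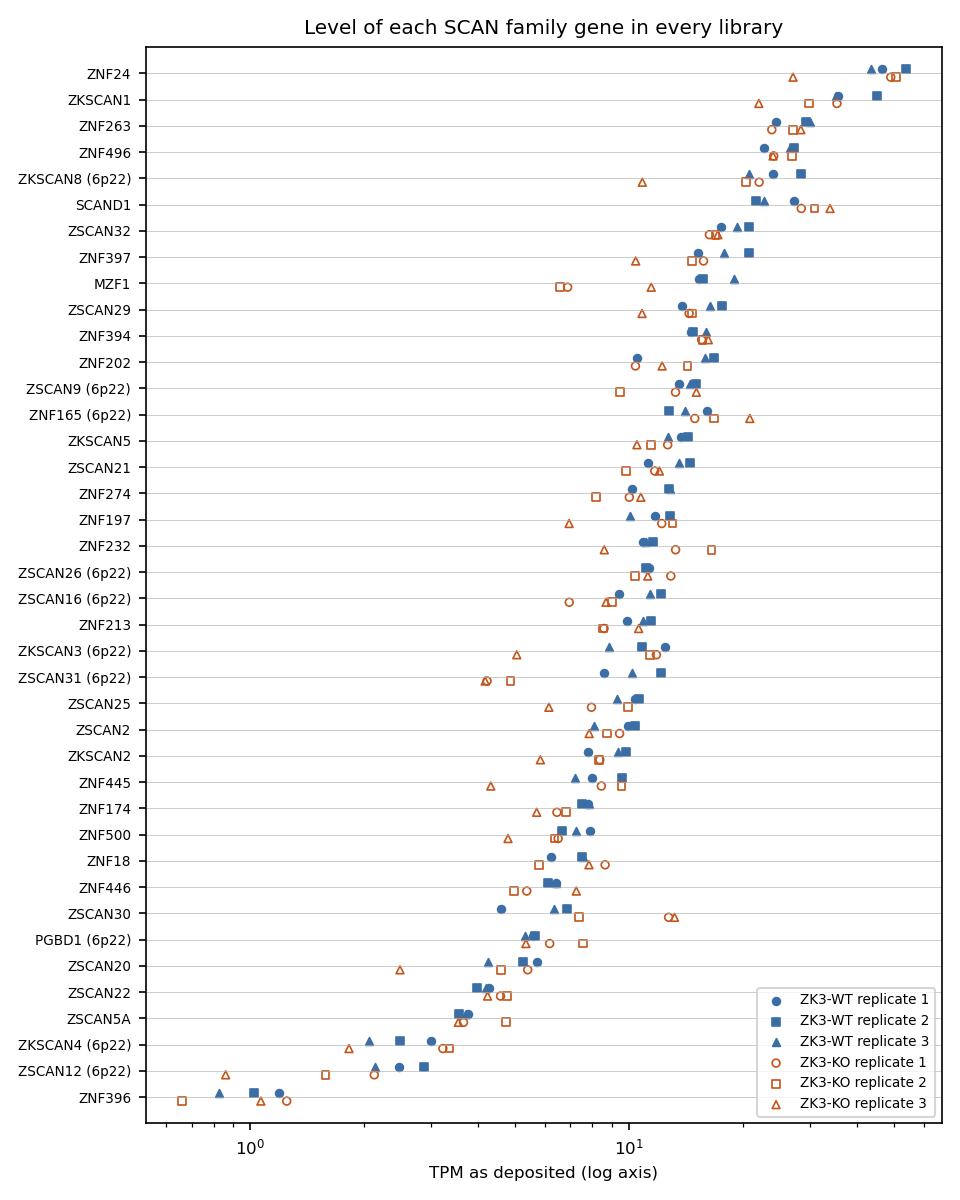
TPM as deposited (x axis, log scale) of the 40 tested SCAN family genes in each of the 6 libraries, ordered by the ZK3-WT mean; filled blue symbols are ZK3-WT, open orange symbols ZK3-KO. Levels span from about 1 TPM for ZNF396 to 48.0 TPM for ZNF24, and for ZSCAN31 the 3 ZK3-KO symbols lie to the left of the 3 ZK3-WT symbols.

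The 4 untested members were not detected or nearly so. ZKSCAN7, ZSCAN18 and PEG3, an imprinted gene expressed from the paternal copy, were listed at 0 reads in all 6 libraries, and ZSCAN23 is given above. A count of 0 allows up to 3 reads, which is 0.0430 to 0.0493 CPM depending on the library. Summed over the family, TPM was 501, 563 and 517 in ZK3-WT and 495, 493 and 431 in ZK3-KO libraries, and the share of all reads was 0.119%, 0.132% and 0.117% against 0.116%, 0.111% and 0.0959%. Every ZK3-KO library was below every ZK3-WT library in both sums, and ZK3-KO replicate 3 was the lowest. For the 6p22 members the TPM sums were 107, 113 and 100.4 against 97.7, 94.8 and 83.9. Such sums are weighted to the highest members and are not TMM-normalized. By log2(CPM + 1), the median tested member of the family lay -0.060, -0.081 and 0.074 from the ZK3-WT mean in ZK3-KO replicates 1 to 3. The median log2 fold change of all genes in TPM was also below 0, at -0.08. The sums were not tested.

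Within the knockout, replicate 3 shifted members in both directions. Of the 40 tested members, 14 (35%) were lower there than in both other ZK3-KO libraries, against 41.4% of all genes, and 21 (52.5%) were higher, against 42.9% of all genes. ZKSCAN3 was the most reduced, at -0.84 log2 units from the mean of the other ZK3-KO libraries, followed by ZNF445 (-0.73), a factor that protects genomic imprints, ZSCAN20 (-0.72) and ZKSCAN8 (-0.64). MZF1 was the most raised, at 1.01. Across members the shift had a Spearman rho of -0.37 with exonic length (n = 40 genes), and across all genes with an annotated length rho was -0.23 (n = 15972 genes). The genes share the same 3 libraries, and the part of length in any single gene was not tested.

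**Figure D5:**
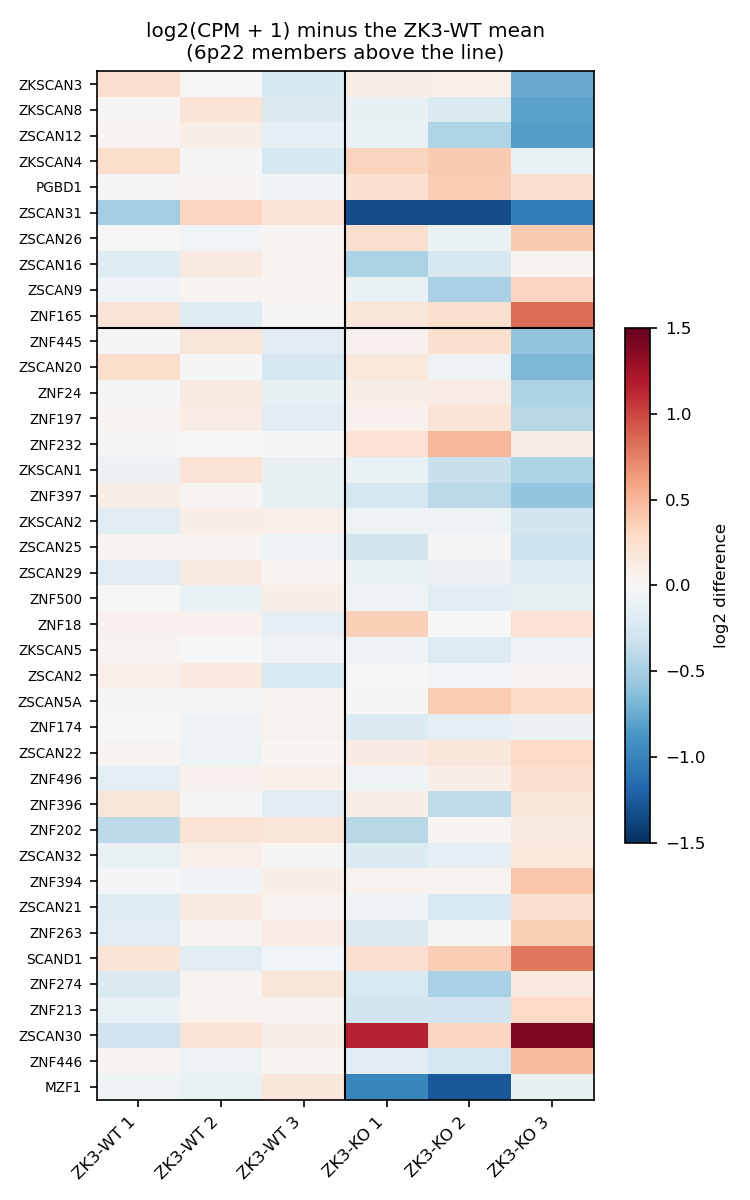
Difference of log2(CPM + 1) from the ZK3-WT mean for the 40 tested members (rows, 6p22 members above the line) in the 6 libraries (columns); blue is lower and red higher than the ZK3-WT mean, with colours cut at 1.5 log2 units. ZSCAN31 is blue in all ZK3-KO columns, ZKSCAN3 only in the third, and MZF1 deeply in the first and second and faintly in the third.

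Apart from the cell markers, the 3 lists of genes beside the family held no call with all libraries. Of 13 further SCAN genes outside the 44, 6 were tested and none passed an FDR of 0.05, with a median log2 fold change of 0.05. Of 10 genes near the 6p22 members without a SCAN domain, 5 were tested, none passed, and their estimates lay between -0.03 and 0.34. All 15 genes of the KRAB co-repressor machinery were tested, 12 with a higher and 3 with a lower estimate in CPM, which became 6 and 9 in TPM, and none passed. In the edgeR test 0, 0 and 1 gene of the 3 lists had an unadjusted p below 0.05, beside 18.4% of all genes (2.05% at an FDR of 0.05).

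TRIM28, the co-repressor that many KRAB domains bind, was the one gene of these 3 lists past the threshold without ZK3-KO replicate 3. Its CPM was 470, 384 and 456 in ZK3-WT and 742, 883 and 638 in ZK3-KO libraries, with every ZK3-KO library above every ZK3-WT library. The log2 fold change was 0.79 with all libraries (standard error 0.18, FDR = 0.0823) and 0.90 without replicate 3 (FDR = 0.00546). SETDB1, which TRIM28 recruits, was outside the naming rule and had a log2 fold change of 0.02 (FDR = 0.959).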

How the data were processed

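RNA of HCT116 cells was sequenced from 3 ZK3-WT and 3 ZK3-KO libraries (TruSeq Stranded mRNA, paired-end). The authors aligned reads to hg19 (GRCh37) with Bowtie2 2.2.5, per the labels, within Partek Flow. The deposited table gives whole-number read counts per gene for each library, together with FPKM (counts scaled by transcript length and library depth) and TPM that the authors computed from them. The methods name an Ensembl annotation, while the table lists RefSeq transcripts. Whether counting used strand is not given in the sources used here. Columns of TPM and FPKM were not used for the main test. Genes were identified by NCBI Gene ID. Positions came from the GENCODE annotation lifted to GRCh37.

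The main test was edgeR's quasi-likelihood test (edgeR 4.0.16 under R 4.3.3), with filterByExpr, TMM factors and genotype as the only term. The FDR is the Benjamini-Hochberg adjusted p over all 18366 genes tested, with a threshold of 0.05, and standard errors were derived from the F statistic. CPM is TMM-normalized. The script was tested on simulated counts. Alternatives were RLE size factors, DESeq2 1.42.0, no filter, limma 3.58.1 on log2(TPM + 1), a replicate block and each library left out in turn. Samples were grouped by the genotype label.

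Same-numbered libraries deviated from their group means together (correlations 0.473, 0.124 and 0.616 for numbers 1 to 3). ZK3-KO replicate 2, however, correlated more with ZK3-WT replicate 1 (0.289) than with its own number. No shared day is stated, so the main test did not pair the samples. Pairing by number entered only as the replicate block among the alternatives. Values are given per library for ZKSCAN3, for the tested 6p22 members and for members past the FDR threshold with all libraries or without ZK3-KO replicate 3. Of the other lists (further SCAN genes, 6p22 neighbours, KRAB co-repressors, cell markers), genes past it in either fit are named and the rest counted. The members and lists were chosen with earlier results of these data known. No 2 libraries agreed within sampling noise. The limit of 3 reads covers counting error only, while the SDs and standard errors include the spread between libraries.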

Additional observations from a re-analysis of the deposited data

How the results depend on the processing

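With edgeR, 376 genes passed an FDR of 0.05, against 1506 with DESeq2 and between 49 and 2858 when 1 library was left out, lowest without ZK3-WT replicate 2 and highest without ZK3-KO replicate 3. Family members past it numbered 1, against 2 with DESeq2 (ZSCAN31 and ZSCAN30, the latter at an adjusted p of 0.0189), 0 with no filter and 0 to 2 when 1 library was left out. ZSCAN31 kept its direction in all 11 alternatives, from -1.59 to -1.05 on the log2 scale, and passed the threshold in 6. Its FDR was 0.0632 with no filter, 0.224 without ZK3-WT replicate 2, 0.205 without ZK3-WT replicate 3, 0.177 without ZK3-KO replicate 1 and 0.123 without ZK3-KO replicate 2. Fewer samples enter those leave-one-out fits. MZF1 passed only without ZK3-KO replicate 3, and TRIM28 only there and with DESeq2 (adjusted p = 0.00241).

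On log2(TPM + 1) the median of all genes was -0.08 in place of 0.02, and the medians were -0.19 for the family, -0.22 at 6p22 and -0.19 elsewhere. In TPM 11 members had a higher and 29 a lower estimate, against 6951 and 11415 of all genes. Without ZK3-KO replicate 3 the sign changed in 7 of the 40 tested members, and in TPM in 3. Among the 15 named genes over all alternatives it changed in 2 cases, neither past the threshold. ZKSCAN3 ran from -0.29 to 0.086 when 1 library was left out, at 0.086 without ZK3-KO replicate 3, and ZSCAN9 from -0.30 to 0.14, at 0.14 without ZK3-KO replicate 2. The cause was not tested.

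With the replicate block, 461 genes and 1 member, ZSCAN31, passed (log2 fold change -1.33, FDR = 0.0296). The block changed no call of a named gene. Of 165 values for 15 named genes over the alternatives, 154 kept their direction and side of the threshold. At 3 libraries a genotype, differences within the standard errors given above were not detectable, and larger ones could also be missed.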
